A study of Mus musculus with 8 samples.

Results

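The 44 genes described here encode the machinery that prepares and carries out DNA replication at the passage from the G1 to the S phase of the cell cycle. They were taken by symbol from a list of G1/S and DNA replication genes. All 44 were found among the 23433 gene symbols counted, and all 44 passed the filter on low counts, which left 14176 genes for testing. The genes fall into 7 roles. Origin licensing has 5 genes, the replicative helicase grouped with Mcm10 has 12, and the polymerases and primase have 9. The clamp, its loader and the single-strand binding proteins have 8. Okazaki fragment maturation has 2, nucleotide supply has 4, and control of G1/S with replication-coupled methylation has 4.

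As background, the origin recognition complex, Cdc6 and Cdt1 load the ring of Mcm2 to Mcm7 onto replication origins in G1. In S phase, Cdc45 and the GINS proteins join the ring to form the active helicase, and the primase and polymerases copy the unwound strands behind it. Many of these genes are transcribed under E2F factors when cells enter the cycle, so their RNA is abundant in dividing basal keratinocytes and low in cells that have left the cycle.

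RNA was measured by sequencing of total RNA in 8 libraries from 4 mouse pups at postnatal day 0.5. Each pup gave a library of hair germ (HG), the epithelial bud that forms a hair follicle, and a library of interfollicular epidermis (IFE), the skin epithelium between follicles. Cells carrying a red K14RFP reporter and high in alpha6 integrin were sorted by FACS, with P-cadherin high for HG and low for IFE. Transgenic (Tg) pups 4 and 6 carried pTRE2-200bcl, a doxycycline-responsive miR-200 construct, together with K14rtTA, in which the keratin 14 promoter of basal keratinocytes drives the transactivator that doxycycline needs. Control pup 3 carried K14rtTA alone and control pup 5 carried pTRE2-200bcl alone, all pups were of mixed strain, and all dams ate doxycycline chow through pregnancy. Each of the 4 groups thus held 2 pups, and the 2 control pups differed in genotype.

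Between 7109871 and 14039583 reads per library were counted in genes. The primary miR-200 transcript was at 0.176 to 3.83 CPM (library-scaled counts, with TMM factors) in the 4 control libraries and at 526 to 797 CPM in the 4 Tg libraries, as the labels say. The ribosomal RNA gene Rn45s took 30.6% of the counts in the control IFE library of pup 3 and 29.0% in the Tg IFE library of pup 4, against 3.56% to 13.0% in the other 6. Pup 4 was the only pup with male expression: its libraries held 703 and 529 counts of the Y-linked gene Ddx3y, against 0 to 4 in the others. The basal keratinocyte marker Krt14 was at 4280 to 11700 CPM in every library, and Cdh3, which encodes P-cadherin, was higher in HG than in IFE within each pup (353 against 293, 436 against 386, 421 against 281 and 576 against 309 CPM in pups 3, 5, 4 and 6).

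Summed over the 44 genes, expression was lowest in Tg IFE. The summed level was 3063 and 3081 CPM in control HG, 2879 in each control IFE library, 2278 and 2653 CPM in Tg HG, and 1702 and 2116 CPM in Tg IFE (pup 3 before 5, and 4 before 6). The Tg libraries lay below the control libraries in both populations, with no overlap. In bulk libraries, fewer cells of a type and less RNA per cell cannot be told apart. In the library of Tg IFE from pup 4, 42 of the 44 genes were below their own mean over the 8 libraries, and in Tg IFE from pup 6, 37 were. In Tg HG the number was 27 in pup 4 but 14 in pup 6. It was 8 to 14 in the control libraries, so by this count Tg HG of pup 6 was not apart from them. Per kilobase of the principal transcript, the sliding clamp Pcna had the highest mean level in each of the 4 groups, from 77.6 CPM per kilobase in Tg HG to 115.5 in control IFE. The helicase subunit Mcm4 came next in control HG (70.0, with Mcm6 at 57.4) and control IFE (67.5, with Mcm6 at 64.8). In the Tg groups Mcm6 came next, at 46.4 against 41.9 for Mcm4 in HG and at 46.6 against 32.6 in IFE. The GINS subunit Gins3 had the lowest mean in 3 of the groups (1.9 to 2.59). In Tg IFE the loading factor Cdc6 (1.71) was below Gins3 (1.82).

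**Figure D1:**
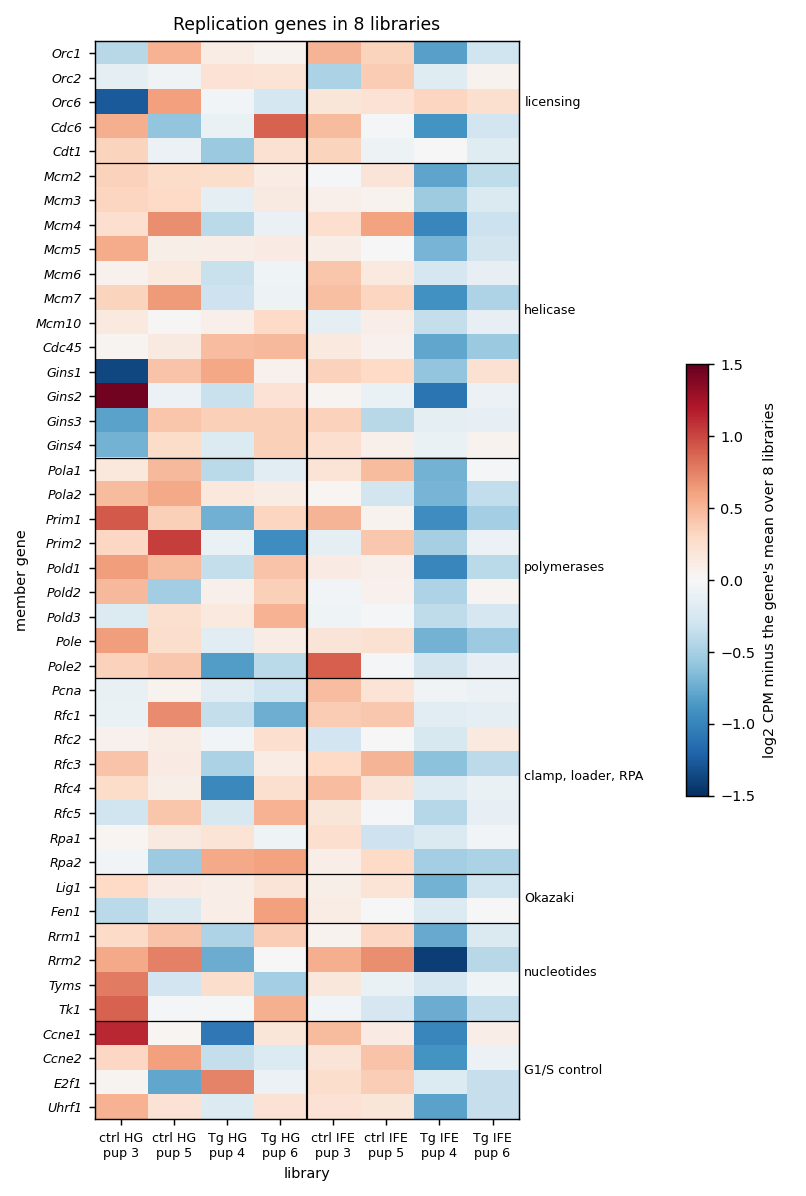
Each row is a gene, ordered by role, and each column a library; colour gives log2 CPM minus that gene's mean over the 8 libraries. Blue dominates the 2 Tg IFE columns, in which 42 and 37 of the 44 genes were below their mean. Isolated dark cells in control HG of pup 3 (Orc6, Gins1, Gins2) mark genes for which that library lay far from the other control libraries.

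In interfollicular epidermis, the median change of each of the 7 roles was below 0 in transgenic against control pups. The median log2 fold change of the 44 genes was -0.495, beside -0.00761 for all genes tested, and 42 of 44 had a fold change below 0 (50.6% of all genes tested did). Mcm4, Mcm7, Pole and Rrm2 fell, and none rose, at an adjusted p under 0.05 (edgeR quasi-likelihood test, Benjamini-Hochberg over all genes tested). Of all genes tested, 1.35% fell and 4.99% rose by that rule. At an unadjusted p under 0.05, 14 of the 44 were lower and 0 higher, beside 6.56% and 10.8% of all genes tested. Both Tg libraries lay below both control libraries for 32 of the 44 genes and above them for 1, Orc6, while 25% of all genes tested were lower and 27.9% higher in that way.

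The helicase genes Mcm4 and Mcm7 encode subunits of the MCM ring. Mcm4 was at 213 and 272 CPM in control IFE and at 90.9 and 143 CPM in Tg IFE. Its level in Tg IFE was 0.484 of that in control IFE, a log2 fold change of -1.05 (SE 0.265, adjusted p = 0.0369). Mcm7 was at 156 and 143 CPM in control IFE and at 61.0 and 82.7 CPM in Tg IFE, a log2 fold change of -1.05 (SE 0.23, adjusted p = 0.0186). For both genes each Tg library lay below each control library. The rest of this role, the helicase grouped with Mcm10, followed in direction. All 12 genes had a fold change below 0, with a median of -0.461 and no overlap between the groups for 9. Mcm2 was at 130 and 149 CPM in control IFE and at 75.4 and 101 CPM in Tg IFE, with a log2 fold change of -0.66 (SE 0.22) that did not pass (adjusted p = 0.111). Cdc45, which joins the ring at activation, was at 30.3 and 28.6 CPM in control IFE and at 15.9 and 18.7 CPM in Tg IFE (log2 fold change -0.76, SE 0.31, adjusted p = 0.22). The smallest helicase difference was that of Gins3 at -0.07, a gene at 3.74 to 6.44 CPM in these 4 libraries.

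Pole encodes the catalytic subunit of DNA polymerase epsilon, which copies the leading strand. It was at 163 and 167 CPM in control IFE and at 87.0 and 97.6 CPM in Tg IFE, a log2 fold change of -0.84 (SE 0.22, adjusted p = 0.0401). The control libraries differed by far less than the gap between the groups. All 9 polymerase and primase genes had a fold change below 0, with a median of -0.665, from -0.985 for the primase subunit Prim1 to -0.193 for the polymerase delta subunit Pold2. Pola2, a subunit of polymerase alpha, was at 35.4 and 28.7 CPM in control IFE and at 21.3 and 26.8 CPM in Tg IFE, and the primase subunit Prim2 was at 29.4 and 43.3 CPM against 23.1 and 30.8 CPM. The Prim2 libraries overlapped between the groups, and neither gene passed (adjusted p = 0.602 and 0.683).

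Rrm2 encodes the small subunit of ribonucleotide reductase, which makes deoxyribonucleotides and is the regulated part of the enzyme in S phase. It was at 54.5 and 60.7 CPM in control IFE and at 13.9 and 27.7 CPM in Tg IFE. Its log2 fold change of -1.44 (SE 0.36, adjusted p = 0.0359) was the largest among the 44 genes in either population. Rrm1, which encodes the large subunit, had a log2 fold change of -0.64 (SE 0.29, adjusted p = 0.268), and the thymidylate genes Tyms and Tk1 had -0.18 and -0.38.

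Among the G1/S control genes, all 4 were lower in both Tg IFE libraries, with a median log2 fold change of -0.668. Uhrf1, which brings the maintenance methyltransferase to newly replicated DNA, was at 160 and 157 CPM in control IFE and at 79.0 and 108 CPM in Tg IFE (log2 fold change -0.75, SE 0.24, adjusted p = 0.0945). The cyclin E genes Ccne1 and Ccne2 had log2 fold changes of -0.58 and -0.73, and E2f1, an activator of replication genes, had -0.60; none passed. The 8 clamp, loader and single-strand binding genes had a median of -0.44. Pcna was at 191 and 159 CPM in control IFE and at 134 and 130 CPM in Tg IFE, a log2 fold change of -0.41 (SE 0.20, adjusted p = 0.347). Rfc1, the large subunit of the clamp loader, was at 118 and 120 CPM against 81.9 and 82.2 CPM, a log2 fold change of -0.54 (SE 0.27, adjusted p = 0.356). Rpa2, a single-strand binding subunit, was at 23.0 and 26.3 CPM against 15.0 and 15.3 CPM, a log2 fold change of -0.71 (SE 0.36, adjusted p = 0.355). None of these libraries overlapped between the groups. Lig1, the ligase that joins Okazaki fragments, was at 103 and 112 CPM against 59.5 and 78.8 CPM (log2 fold change -0.63, SE 0.22, adjusted p = 0.145). The 5 licensing genes had a median of -0.223, from -0.94 for Orc1 to 0.08 for Orc6, both subunits of the origin recognition complex.

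The number of replication genes called in IFE, 4 among 899 of all genes tested, depended on the libraries used. It was 0 (537 of all genes) without the control library of pup 3, 0 (303) without that of pup 5, 0 (344) without the Tg library of pup 4 and 2 (Mcm4 and Rrm2, 500) without the Tg library of pup 6, and each of these fits leaves 1 library in that group. Calls over all genes fell with them. In the same fits the log2 fold change ran from -0.754 to -1.39 for Mcm4, from -0.846 to -1.27 for Mcm7, from -0.749 to -0.896 for Pole and from -1.05 to -2.03 for Rrm2. The number called was also 0 (207 of all genes) without both libraries of pup 4, 0 (195) without the 2 Rn45s-rich IFE libraries, and 0 (909) when counts were scaled by library size only. The median of the 44 genes stayed between -0.263 and -0.676 under the alternatives tried.

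**Figure D2:**
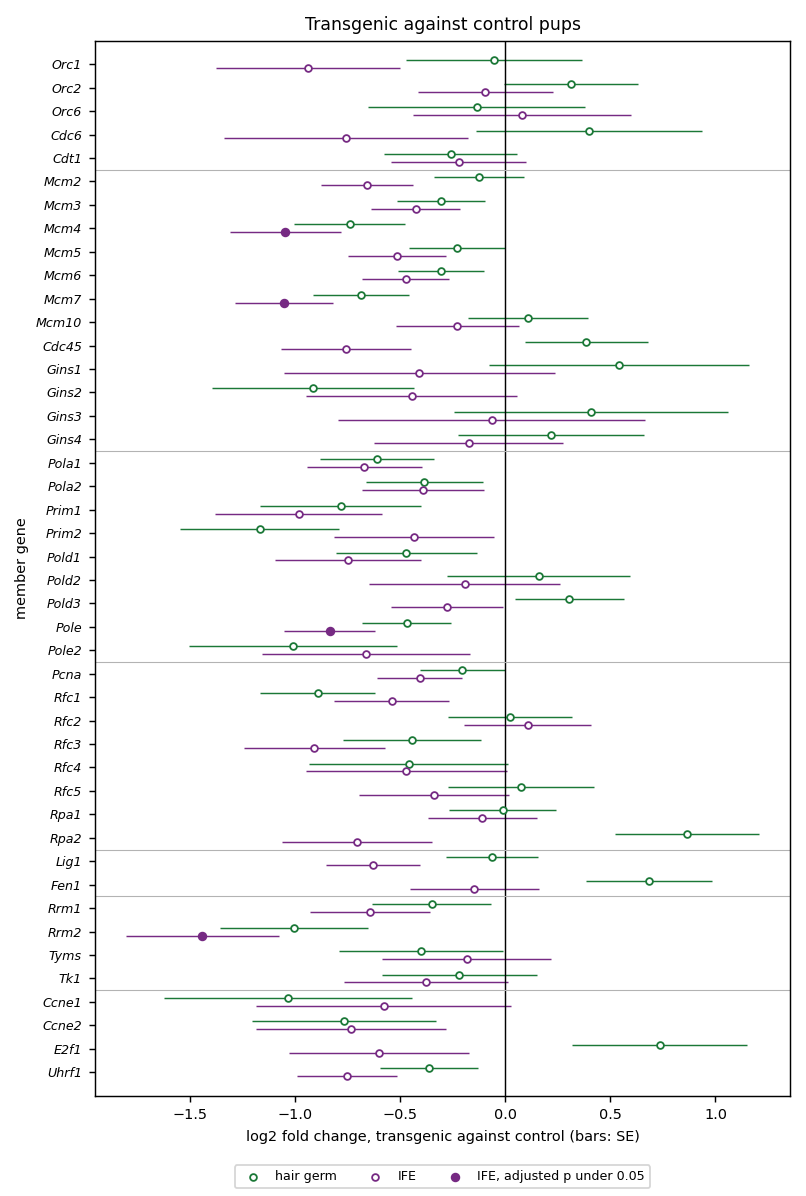
Log2 fold change of Tg against control for each of the 44 genes, with its SE as a bar, in hair germ (green) and in IFE (purple); filled points passed an adjusted p of 0.05. The 4 filled points are Rrm2, Mcm7, Mcm4 and Pole in IFE, 42 of the 44 IFE points lie below 0, and green points lie on both sides of 0.

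**Figure D3:**
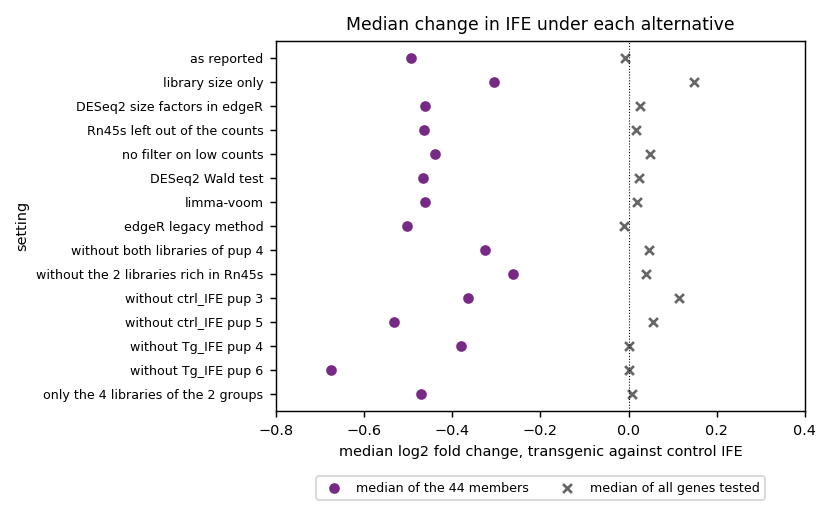
Each row is a setting of the IFE comparison; the circle is the median log2 fold change of the 44 genes and the cross that of all genes tested. The circles run from -0.263 to -0.676 and every circle is left of its cross.

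Other cell types also differed between these IFE libraries. The summed level of 15 immune cell markers was 228 and 119 CPM in control IFE and 3390 and 2670 CPM in Tg IFE; all 15 rose, with a median log2 fold change of 4.15, and none was at 0 in an IFE library. The most abundant, Csf1r, was at 67.7 and 26.3 CPM in control IFE and at 969 and 707 CPM in Tg IFE. The summed level of 11 melanocyte markers was 24.4 and 21.5 CPM in control IFE and 170 and 149 CPM in Tg IFE, and 5 rose; Mlana, Sox10, Tyrp1 and Slc45a2 were at 0 in both control libraries, and Mlana also in Tg pup 4. The summed level of 10 basal keratinocyte markers was 34300 and 37000 CPM in control IFE and 17100 and 17400 CPM in Tg IFE, and 7 of 10 fell, with a median of -0.905. The summed level of 10 fibroblast markers was 1260 and 1290 CPM in control IFE and 469 and 580 CPM in Tg IFE; of the 6 tested, Postn, which made up most of the sum, fell (log2 fold change -1.26, adjusted p = 0.0082), while Lum and Twist2 were at 0 in all 4 libraries. The endothelial sum was 7.31 and 2.8 CPM in control IFE and 17.7 and 14.2 CPM in Tg IFE, with no marker called and Emcn and Cldn5 at 0 in all 4. The Merkel cell sum was 12 and 7.98 CPM against 27.2 and 38.9 CPM, while Atoh1 was at 0 in all 4. Of the 7 Merkel cell markers, 4 had a fold change above 0 and 2 below. Krt18 alone was called, and it rose (log2 fold change 4.75, adjusted p = 0.00565). Relative to the basal sum, the replication genes were at 0.0839 and 0.0778 in control IFE and at 0.0995 and 0.122 in Tg IFE, so that ratio was higher in both Tg libraries. The summed level of 9 suprabasal keratinocyte markers was 4810 and 1890 CPM in control IFE and 2760 and 1880 CPM in Tg IFE. None of the 9 was called, and their median log2 fold change was 0.0318. The part of these cell types in the lower replication gene levels was not tested.

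In hair germ, no replication gene passed the test, and the genes lay on both sides of 0. The median log2 fold change of Tg against control was -0.246, beside 0.0448 for all genes tested, and 30 of 44 were below 0 (47.2% of all genes tested were). At an adjusted p under 0.05, 0 of the 44 were called by edgeR, against 0.19% of all genes tested that fell and 0.762% that rose. At an unadjusted p under 0.05, 7 were lower and 2 higher (5.88% and 11.2% of all genes tested), and DESeq2's Wald test called 0 of the 44 (648 of all genes) at an adjusted p under 0.05. The Tg libraries lay below both control libraries for 18 genes and above them for 4, beside 16.9% and 22.4% of all genes tested. Without the Tg HG library of pup 6 the median was -0.385.

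The 4 genes that fell in Tg IFE were also lower in both Tg HG libraries. Mcm4 was at 212 and 291 CPM in control HG and at 135 and 166 CPM in Tg HG (log2 fold change -0.74, SE 0.26, adjusted p = 0.181). Mcm7 was at 144 and 178 CPM against 92.2 and 108 CPM (-0.69, SE 0.23, adjusted p = 0.162), and Rrm2 was at 55.1 and 63.2 CPM against 22.2 and 37.1 CPM (-1.01, SE 0.35, adjusted p = 0.181). Pole was at 220 and 171 CPM against 128 and 155 CPM (-0.47, SE 0.21, adjusted p = 0.288). The separation of the libraries held for each of the 4, but none passed the adjusted threshold. The HG and IFE libraries come from the same pups, so HG is not an independent repeat. Of all genes tested, 8.39% separated in this direction in both populations.

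Rfc1 and Prim2 had the smallest p values in this comparison. Rfc1 was at 85.1 and 149 CPM in control HG and at 71.1 and 54.8 CPM in Tg HG, a log2 fold change of -0.89 (SE 0.27, adjusted p = 0.134); without the control HG library of pup 3 it was -1.29 with an adjusted p of 0.0378 (among 199 of all genes called), the only call of a replication gene in HG when single libraries were left out. Prim2 was at 40.7 and 67.2 CPM against 30.5 and 17.1 CPM, a log2 fold change of -1.17 (SE 0.38, adjusted p = 0.152). For both genes the 2 control pups were far apart, but still above both Tg pups. The 9 polymerase and primase genes had a median of -0.471, and the 4 nucleotide supply genes were all below 0 with a median of -0.377.

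Rpa2, Cdc45, Fen1 and Orc2 lay the other way, with both Tg HG libraries above both control libraries. Rpa2 was at 20.9 and 14.7 CPM in control HG and at 32.0 and 32.6 CPM in Tg HG, a log2 fold change of 0.86 (SE 0.34, adjusted p = 0.224). Cdc45 was at 28.3 and 30.2 CPM against 37.9 and 38.5 CPM, a log2 fold change of 0.38 (SE 0.29, adjusted p = 0.539). Fen1, the nuclease that trims Okazaki fragment flaps, had 0.68 (SE 0.30, adjusted p = 0.278) and Orc2 had 0.31 (SE 0.32, adjusted p = 0.657). The Mcm2 and Pcna groups did not overlap but lay close together. Mcm2 was at 166 and 158 CPM against 157 and 140.9 CPM (-0.12, SE 0.21, adjusted p = 0.82), and Pcna was at 129 and 143 CPM against 124 and 112 CPM (-0.21, SE 0.20, adjusted p = 0.645). Lig1 was at 119 and 105.9 CPM against 104 and 111 CPM, with overlapping libraries. Uhrf1 was at 198 and 160 CPM against 119 and 159 CPM (-0.36, SE 0.23, adjusted p = 0.463), and Pola2 at 48.5 and 51.6 CPM against 38.8 and 37.7 CPM (-0.39, SE 0.28, adjusted p = 0.513).

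**Figure D4:**
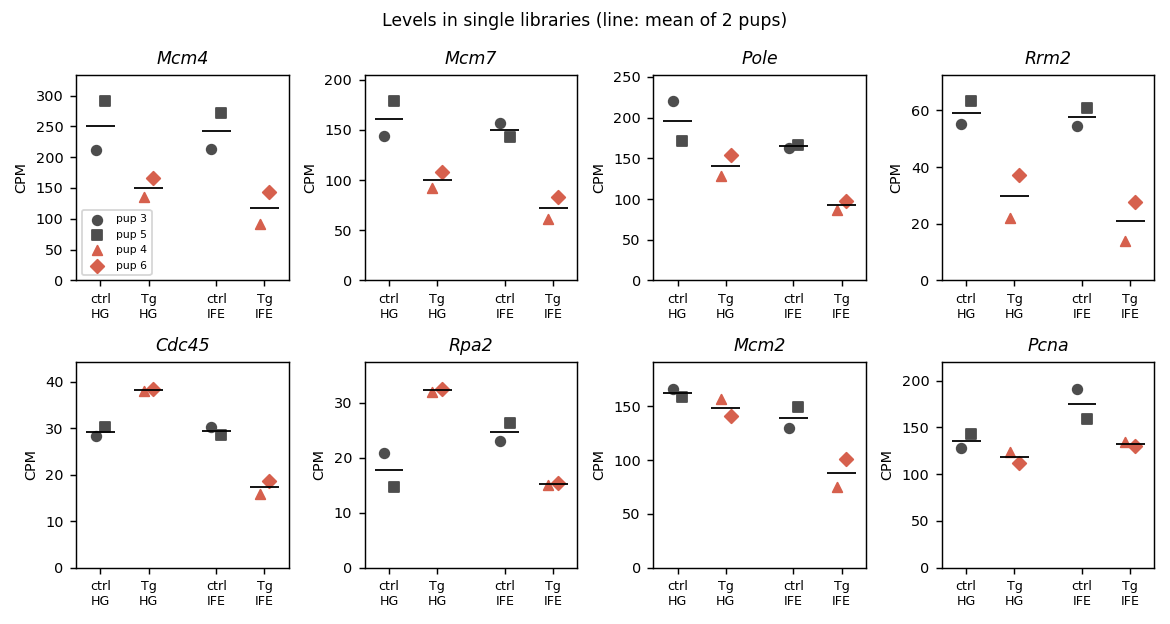
Level in each library, in CPM from a zero baseline, for 8 replication genes; the marker shape gives the pup and the line the mean of 2 pups. Mcm4, Mcm7, Pole and Rrm2 are lower in Tg in both populations, whereas Cdc45 and Rpa2 are higher in Tg HG and lower in Tg IFE.

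Markers of other cell types differed between the HG libraries as well. The summed immune level was 132 and 61.3 CPM in control HG and 387 and 234 CPM in Tg HG, with 5 of 15 markers called higher and a median log2 fold change of 1.67; Itgb2 and Sfpi1 were at 0 in both control HG libraries. The summed melanocyte level was 36.6 and 32.8 CPM in control HG and 157 and 206 CPM in Tg HG, with 4 of 11 called higher; Mlana and Sox10 were at 0 in both control HG libraries. The basal keratinocyte sum was 31000 and 26900 CPM in control HG and 21700 and 17700 CPM in Tg HG, and none of those 10 markers was called. The ratio of the replication sum to the basal sum was 0.0988 and 0.115 in control HG and 0.105 and 0.149 in Tg HG, which overlap. The fibroblast sum was 1160 and 1020 CPM in control HG and 689 and 673 CPM in Tg HG, and none of its 6 tested markers was called. The endothelial sum was 8.43 and 3.19 CPM against 39.3 and 60.5 CPM, mostly Flt1 in the Tg libraries, with Cdh5, Emcn and Cldn5 at 0 in all 4 HG libraries. The Merkel cell sum was 34.4 and 21.7 CPM against 74.2 and 50.8 CPM. No endothelial or Merkel cell marker was called in HG. The part of these markers in the replication gene values was not tested.

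The transgene effect in HG was compared directly with that in IFE, as the difference of the log2 fold changes. Its median over the 44 genes was 0.299 and 34 were above 0, beside a median of 0.0646 and 54.4% above 0 for all genes tested; 0 were called (0% of all genes tested were called higher and 0.134% lower). At an unadjusted p under 0.05, Cdc45, Rpa2 and E2f1 were above 0 (3.33% of all genes tested were), and DESeq2's Wald test called 0 of the 44 (177 of all genes). The median was 0.0717 without the Tg HG library of pup 6, 0.0868 without the Tg IFE library of pup 4 and 0.0579 without the Rn45s-rich libraries. The effect was not shown to differ between the populations for any replication gene. The libraries of both Tg pups were below both controls in HG and in IFE for 17 genes, and above them in both populations for 0, beside 8.39% and 10.4% of all genes tested; the 2 populations come from the same pups.

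Within control pups, no replication gene was called different between HG and IFE. The median log2 difference, HG minus IFE, was 0.0456, beside -0.0381 for all genes tested, and 27 of 44 were above 0 (46.1% of all genes tested). By the adjusted test 0 of the 44 differed, and across all genes tested 0.00705% were called higher and 0% lower in HG; Pola2 alone was higher at an unadjusted p under 0.05 (2.84% of all genes tested were), and DESeq2's Wald test called 0 of the 44 (152 of all genes). In HG, Pola2 was at 48.5 and 51.6 CPM, against 35.4 and 28.7 CPM in IFE. Pcna went the other way, at 129 and 143 CPM in HG and 191 and 159 CPM in IFE. HG libraries lay above both IFE libraries for 8 genes and below for 4 (14.2% and 19.2% of all genes tested). Leaving out each of the 4 libraries gave medians from 0.00469 (without control HG pup 5) to 0.127 (without control HG pup 3), and scaling by library size only gave 0.352, when the median of all genes tested was 0.264.

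Within Tg pups, the summed replication gene level was higher in HG than in IFE of the same pup, at 2278 against 1702 CPM in pup 4 and 2653 against 2116 CPM in pup 6. The median log2 difference was 0.441, beside 0.0232 for all genes tested, and 35 of 44 were above 0 (51.4% of all genes tested). Both HG libraries lay above both IFE libraries for 21 genes and below for 4, beside 26.4% and 28.9% of all genes tested. None of the 44 passed the adjusted test, by which 0.875% of all genes tested were higher and 3.75% lower in HG, but 9 were higher at an unadjusted p under 0.05 (7.29% of all genes tested). The median was 0.205 without the Tg HG library of pup 6, 0.209 without the Tg IFE library of pup 4 and 0.191 without the Rn45s-rich libraries. Cdc45 was at 37.9 and 38.5 CPM in Tg HG and at 15.9 and 18.7 CPM in Tg IFE, a log2 difference of 1.14 (SE 0.31, adjusted p = 0.0582). Mcm2 was at 157 and 140.9 CPM against 75.4 and 101 CPM, a difference of 0.75 (SE 0.22, adjusted p = 0.0758). Both genes were called by DESeq2's Wald test (adjusted p = 0.0256 and 0.03, among 879 of all genes) and by edgeR fitted on these 4 libraries only (adjusted p = 0.0348 and 0.0402, among 1385), against 655 of all genes in the fit with 8 libraries. Lig1 was higher in HG at an unadjusted p of 0.0151, with 104 and 111 CPM against 59.5 and 78.8 CPM. The Tg libraries enter this comparison and the transgene comparisons alike. The immune markers differed here too: their sums were 387 and 234 CPM in Tg HG against 3390 and 2670 CPM in Tg IFE, and 14 of 15 were called lower in HG. Their part in the HG to IFE difference was not tested.

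Pup by pup, HG exceeded IFE for 24 and 30 of the 44 genes in control pups 3 and 5 and for 35 and 34 in Tg pups 4 and 6. Across all genes tested, HG exceeded IFE for 47.9% and 43.9% in the control pups and for 49.1% and 48.6% in the Tg pups. The median within-pup difference was 0.0438 and 0.0891 in the control pups and 0.501 and 0.373 in the Tg pups. HG was above IFE in all 4 pups for 13 genes and below in all 4 for 1, Pcna, beside 11.1% and 15.4% of all genes tested. Averaged over genotypes, the median difference was 0.21, 35 of 44 genes were above 0 (46.8% of all genes tested), and 0 were called (1% of all genes tested higher, 2.39% lower). Among these, 9 were higher at an unadjusted p under 0.05 (7.46% of all genes tested). DESeq2's Wald test called 1 of the 44, Mcm2 (1014 of all genes), and edgeR called 1, Tk1 (1258 of all genes), without the control HG library of pup 5, against 481 of all genes in the fit with every library. The median was 0.0986 without the Tg IFE library of pup 4 and 0.317 without that of pup 6.

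**Figure D5:**
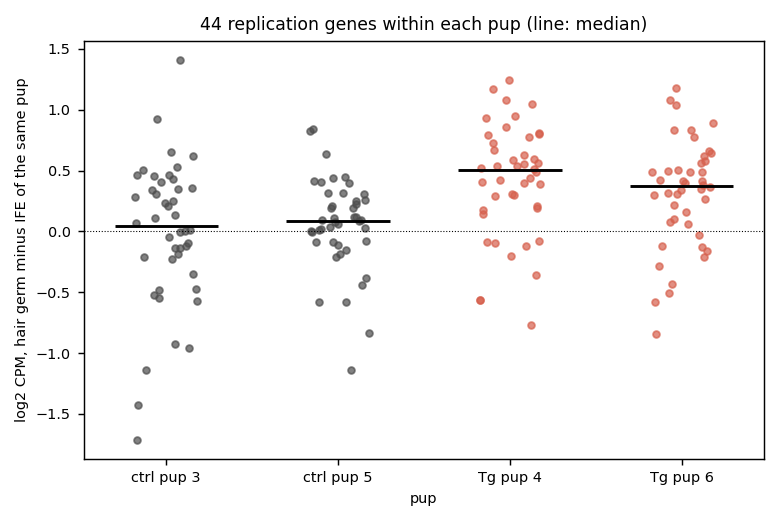
Each point is a replication gene and gives log2 CPM in hair germ minus IFE of the same pup; lines are the medians over the 44 genes. The medians are near 0 in control pups 3 and 5 (0.0438 and 0.0891) and higher in Tg pups 4 and 6 (0.501 and 0.373), and genes lie on both sides of 0 in every pup.

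A further list of 70 genes of the same pathways, such as cyclins, E2F and Rb family genes, origin factors and replication-coupled chromatin genes, was read in the same fit, and 69 were tested. Cdkn2a was at 0 in every library. In IFE the median log2 fold change of Tg against control was -0.402, and 55 of 69 were below 0 (50.6% of all genes tested). At an adjusted p under 0.05 (edgeR), 1 of the 69 fell and 1 rose, beside 1.35% and 4.99% of all genes tested. The gene that fell was E2f7, an E2F family repressor. The gene that rose was Rb1, which encodes the retinoblastoma protein that restrains E2F factors. E2f7 was at 68.6 and 79.8 CPM in control IFE and at 33.5 and 38.8 CPM in Tg IFE (log2 fold change -1.04, SE 0.26, adjusted p = 0.0353). Rb1 was at 24.6 and 22.5 CPM against 65.6 and 53.8 CPM (1.34, SE 0.35, adjusted p = 0.0436). In HG the median was -0.232 and 47 of 69 were below 0 (47.2% of all genes tested). There 0 of 69 were called, beside 0.19% of all genes tested that fell and 0.762% that rose. Among 30 G2/M and mitosis genes the median was -0.587 in IFE, with 29 below 0, and -0.463 in HG, with 27 below 0. Of all genes tested, 50.6% were below 0 in IFE and 47.2% in HG. Anln, which encodes the cytokinesis protein anillin, was the only one of the 30 called in either comparison; in IFE it was at 189 and 181 CPM in control and 103 and 109 CPM in Tg (-0.81, SE 0.20, adjusted p = 0.0349). The summed replication genes were set against the summed G2/M genes as a ratio. In HG this ratio was 0.709 and 0.803 in control and 0.828 and 0.858 in Tg. In IFE it was 0.828 and 0.846 in control and 0.783 and 0.815 in Tg. The genotypes did not overlap within either population, with Tg higher in HG and lower in IFE.

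The transgene carries miR-200, so the seeds of the family were set beside the replication genes. The mature miRNAs are shown because they fall into a pair of seed groups that differ by 1 base; capitals mark the seed (bases 2 to 8), and the sequences are from RefSeq on GRCm38.p6.
miR-200b-3p: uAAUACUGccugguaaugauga
miR-429-3p: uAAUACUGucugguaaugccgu
miR-200c-3p: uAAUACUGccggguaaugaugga
miR-200a-3p: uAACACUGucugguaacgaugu
miR-141-3p: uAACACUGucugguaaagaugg
A match to the seed of miR-200b, miR-200c and miR-429, CAGTATT, was found in the 3′ UTR of 4 of the 44 genes (9.09%), Mcm4, Rfc1, Rrm1 and Rrm2, against 12.9% of all 20968 genes with a 3′ UTR. A match to the seed of miR-200a and miR-141, CAGTGTT, was found in Pold3, Rpa1, Fen1 and Ccne2 (9.09%, against 16.6%). The median 3′ UTR was 528.5 bases in the members and 901 in all genes, in GENCODE annotation of GRCm38. The CAGTATT sites are shown for the 4 genes that hold one, with the match in capitals, on the transcribed strand.
Mcm4: agtctgaaaggCAGTATTccactatataa
Rfc1: tggttggattaCAGTATTcagcagttctt
Rrm1: tacacataatgCAGTATTtgcacttgtat
Rrm2: tttttaatgctCAGTATTatcttgaagtt
Of the 4 genes that fell in Tg IFE, Mcm4 and Rrm2 hold this match and Mcm7 and Pole do not. A match of 7 letters is a description of the sequence and not of a working site.

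E2F elements were searched in RefSeq promoters from 250 bases before to 50 after the start. An exact TTTCCCGC, TTTGGCGC, TTTCGCGC or TTTGCCGC on either strand was present in 15 of the 43 promoters listed for 36 of the 44 genes (34.9%), and in 2.26% of all 32851 promoters and 2.85% of 21263 promoters of protein-coding genes. Median GC content was 58.3% in the members' promoters and 56.3% in those of protein-coding genes. The CHR element TTTGAA was in 11.6% of member promoters and 17.9% of all, and a CCAAT word in 58.1% and 37.4%. These words can overlap each other in a promoter. The promoters of Mcm7, which fell in IFE, of Mcm6, with the most E2F matches (3), and of Rrm2, which fell without an exact match, are shown with E2F matches in capitals (GRCm38.p6). Mcm7 has a second promoter in the table, at chr5:138171217-138171516, with 0 E2F matches. Mcm4 and Pole have no entry there. Overlapping matches on opposite strands form the longer run of capitals in Mcm6.
Mcm7, chr5:138171834-138172133, minus strand: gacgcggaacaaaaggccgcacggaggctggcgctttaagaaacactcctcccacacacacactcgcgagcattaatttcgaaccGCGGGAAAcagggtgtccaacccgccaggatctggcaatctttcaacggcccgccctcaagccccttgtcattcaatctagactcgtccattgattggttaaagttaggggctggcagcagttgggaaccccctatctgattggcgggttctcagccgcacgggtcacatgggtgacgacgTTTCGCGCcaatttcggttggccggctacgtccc
Mcm6, chr1:128359656-128359955, minus strand: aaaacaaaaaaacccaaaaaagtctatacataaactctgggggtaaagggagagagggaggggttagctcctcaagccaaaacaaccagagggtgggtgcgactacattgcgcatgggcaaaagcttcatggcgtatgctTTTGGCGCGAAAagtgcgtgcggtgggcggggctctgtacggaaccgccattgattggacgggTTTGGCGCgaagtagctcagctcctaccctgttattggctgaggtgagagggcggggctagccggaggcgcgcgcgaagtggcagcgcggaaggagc
Rrm2, chr12:24708004-24708303, plus strand: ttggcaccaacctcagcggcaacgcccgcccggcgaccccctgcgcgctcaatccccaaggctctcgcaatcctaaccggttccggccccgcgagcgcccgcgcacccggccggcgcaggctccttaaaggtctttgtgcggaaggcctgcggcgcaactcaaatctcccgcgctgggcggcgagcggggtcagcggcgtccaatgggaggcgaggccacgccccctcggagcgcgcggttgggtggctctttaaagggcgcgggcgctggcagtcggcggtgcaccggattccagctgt
Mcm6 was at 207 and 171 CPM in control IFE and 129 and 142 CPM in Tg IFE (log2 fold change -0.48, SE 0.21, adjusted p = 0.253). A missing match says only that these letters are absent from the window.

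On GRCm38, Mcm4 is at chr16:15623897-15637400 and Mcm7 at chr5:138164583-138172422, both on the minus strand. Pole is at chr5:110286306-110337474 and Rrm2 at chr12:24708241-24714146, both on the plus strand. Mcm7 hosts the hairpins of Mir25, Mir93 and Mir106b, which had at most 39, 2 and 0 counts in a library. No source used here gives the strand setting of the read counting, so genes with exons shared with an opposite neighbour are uncertain. This applies most to Fen1, of whose exon bases 78.8% overlap the antisense gene Gm10143, to Gins2, with 67.3% overlapping Gse1, and to Orc2, with 29.8% overlapping Nif3l1.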

How the data were processed

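Raw counts per gene symbol, as deposited by the authors, were used for 8 total RNA libraries. Per the submitters' processing notes, TopHat, HTSeq and DESeq2 were used on mm10 (GRCm38); no source used here gives their versions or the strand setting. Libraries were made with a SMARTer stranded low-input kit after Trizol extraction, per the labels' protocols. The 5 HTSeq summary lines per library were left out, and 23.4% to 42.4% of recorded reads were assigned to genes. A deposited normalised matrix was not used. edgeR 4.0.16 (R 4.3.3) was run with TMM scaling and filterByExpr, 4 group means over all 8 libraries and the quasi-likelihood test, two-sided, with Benjamini-Hochberg adjustment over 14176 genes and a threshold of 0.05. SE is the absolute log2 fold change divided by the square root of F. The fit was run on simulated counts with less spread than these data and no differences between pups built in. Its error rates on these data were therefore not measured. Levels per kilobase divide CPM by the principal transcript of GENCODE. HG and IFE libraries of a pup come from 1 animal, per the labels, so pup numbers pair the populations. The deviations of a pup from its group means correlated at 0.117 in controls and 0.0868 in Tg across all genes tested, and at 0.103 and 0.312 across the 44 members. Pups are separate animals. The members and gene lists were chosen with earlier results of these data known. By rule, the value in every library is given for called members and those with the smallest p, to 12, plus Mcm2 and Pcna. Alternatives were other scalings, filters, tests (DESeq2 1.42.0, limma 3.58.1), a pup block and left-out libraries.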

Additional observations from a re-analysis of the deposited data

Results flagged for a closer look

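The libraries of Cdc45 and Rpa2 separated in opposite directions in the populations. Both Tg libraries were above both controls in HG and below both in IFE. The transgene effect itself passed in neither population (edgeR adjusted p = 0.539 in HG and 0.22 in IFE for Cdc45, 0.224 and 0.355 for Rpa2). The share of all genes tested that separate this way in both populations was not counted, so how common the pattern is remains unknown. Taken singly, 22.4% of all genes tested separated higher in Tg HG and 25% lower in Tg IFE. The difference of the transgene effect, HG minus IFE, was 1.142 for Cdc45 (SE 0.43, edgeR adjusted p = 0.495) and 1.572 for Rpa2 (SE 0.49, adjusted p = 0.388) on the log2 scale. The edgeR test of the difference did not pass for either gene.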

How the results depend on the processing

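Neither the medians of the 44 genes nor the 12 named members with Pcna in the comparisons tried changed sign under the alternatives run. The 4 calls in Tg against control IFE became 0 with scaling by library size only, 1 (Mcm7) with edgeR's legacy method, 0 without both libraries of pup 4 and 0 without the 2 Rn45s-rich libraries, and ranged from 0 to 2 when each library was left out. The calls in HG ranged from 0 to 1 in the same way. The calls between HG and IFE were 2 in Tg by DESeq2 and 2 in the fit on those 4 libraries, and averaged over genotypes 1 by DESeq2 and 0 to 1 when libraries were left out (Tk1 without control HG pup 5). Where a left-out library left 1 in a group, it was assumed to vary like the other groups. With pup as a replicate block, 0 replication genes were called in each comparison between HG and IFE, as without it, so no call changed. Scaling by library size alone shifted the median of all genes tested to 0.149 in Tg against control IFE and to 0.264 in HG against IFE of controls; the median of the 44 genes was then -0.305 and 0.352. The median difference of the transgene effect fell to 0.0579 without the Rn45s-rich libraries. Over all the alternatives, Pole lost its call in IFE in 10, Mcm4 in 8, and Mcm7 and Rrm2 in 7 each. For Mcm4 and Pole these include settings not named above. The causes were not tested. Gins3, at 2.81 to 6.78 CPM, had the largest SE of the 44 genes in IFE, at 0.73. The part of sequencing depth in that SE was not tested.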
